A study of Mus musculus with 10 samples.

Results

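The 40 genes described here are interferon-stimulated genes, chosen by their gene symbols, and all 40 were found among the 46959 genes of the deposited count table. They were measured by RNA-seq in 10 mouse libraries, 6 from cultured spleen cells and 4 from femurs. Type I interferons are secreted proteins that bind a receptor shared by most cells and activate, through the kinases Jak1 and Tyk2, a complex that includes Stat2 and Irf9 and binds the promoters of such genes. The products sense viral nucleic acid, degrade RNA, block virus entry or assembly, or tune the response itself. In B cells, lipopolysaccharide (LPS), a bacterial product that signals through Tlr4, drives division and antibody secretion, and several interferon-stimulated genes are transcribed at a basal level without infection.

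The splenic libraries came from splenocytes lacking CD43 on their surface, which are mostly resting B cells, cultured for 2 days with 5 µg/ml LPS in RPMI medium with 10% FCS. Cultures were from wild-type (WT) mice, called Black-6 in the protocol, with LPS (n = 2) or with LPS and 200 ng/ml SAHA from the start (n = 2), SAHA being an inhibitor of histone deacetylases, and from KOKI mice with LPS (n = 2). The labels do not spell out KOKI and do not give the strain of the KOKI mice, so genotype and strain cannot be told apart. The labels disagree on the KOKI cultures: title and design text give LPS alone, but the treatment field adds SAHA, and they were therefore compared with both WT groups. The library names of the SAHA cultures hold the tag D3, which the labels do not explain, so a culture time other than the stated one was not tested. Those of the KOKI cultures number them 1-4 and 3 where the titles have 1 and 2, and whether a KOKI library is a pool of mice is not stated. The femoral libraries were RNA extracted directly after recovery, each from a pool of 3 mice: RAG2-deficient and gamma c-deficient controls (n = 2), KOKI mice on that same background (n = 1) and KOKI mice deficient for RAG2 alone (n = 1). All femoral mice thus lacked RAG2, which is needed to rearrange antigen receptor genes.

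Total counts were 18614742 to 29314068 per library. The splenic libraries held 5432 to 6877 CPM (counts scaled to a common library total) of 10 mature B cell markers, none of them at 0. The femoral libraries, labelled B cells, held 180 to 239 CPM of these markers with the complement receptor Cr2 at 0, beside 13273 to 20575 CPM of 10 neutrophil markers, and are called femoral pools below. Some libraries stood apart. WT LPS+SAHA replicate 2 had a count for 451 of 1292 olfactory receptor genes and replicate 1 for 126. The WT LPS, KOKI and femoral libraries had one for 15 to 47. Of the KOKI cultures, replicate 2 had 8499 counts of Xist, the RNA of the inactive X chromosome, and 20 of the Y-linked Ddx3y, against at most 9 and at least 3183 in the other 5 splenic libraries. The 2 KOKI cultures thus differ in these sex-linked genes and did not come from the same animal. For the other groups, nothing beyond the titles' numbers and the stated pools says that replicates came from separate animals. The p-values therefore measure the spread between these libraries, which may be technical in part.

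By level per gene length, the highest members in WT LPS cultures were Samd9l, a cytoplasmic restriction factor, at 78.1 and 103 TPM (counts scaled by gene length and library total), the tetherin gene Bst2 at 51.0 to 75.1 TPM, and the ubiquitin-like modifier Isg15 at 47.0 to 67.5 TPM. The ranges over the 2 libraries overlapped between Bst2 and Isg15, between Isg15 and Trim30a at 41.4 to 50.6 TPM, and between Trim30a and Oasl1 at 39.3 to 45.3 TPM, but not between Bst2 and either of the last 2 or between Isg15 and Oasl1. The lowest were Ifi44l, with 0 counts in both libraries, Ifitm1 at 0.0422 to 0.105 TPM and Ifi44 at 0.325 to 0.671 TPM. In KOKI cultures the members summed to 1084 and 1228 CPM, below the 1879 and 1875 CPM of WT LPS and the 1737 and 1865 CPM of WT LPS+SAHA. In femoral pools they summed to 1817 and 2167 CPM in controls and to 1579 and 1521 CPM in KOKI.

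The promoters of many members carry the tandem GAAA element that interferon-activated factors bind. RefSeq promoter windows (build GRCm38.p6, 250 bases before to 50 after the start) were at hand for 31 of the 40 members. The motif searched was GAAA, any 2 bases and GAAA again, or its reverse complement, TTTC, any 2 bases and TTTC, with overlapping matches allowed, and 15 of the 31 members (48.4%) held it, against 3.99% of 27025 genes with such a window. The sites below are shown for genes that fell in KOKI cultures, with Isg15, which was not called there, for contrast; they run 5′ to 3′ on the gene's strand, and the capitals mark the match. Where a window held several matches, 1 is shown.
Rsad2, chr12:26456553-26456582, minus strand: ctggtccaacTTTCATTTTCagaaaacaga
Ifit1, chr19:34640775-34640804, plus strand: caggcttcagTTTCACTTTCcagtctcagt
Ifit3, chr19:34583363-34583392, plus strand: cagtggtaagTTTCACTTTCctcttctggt
Ifit3b, chr19:34607759-34607788, plus strand: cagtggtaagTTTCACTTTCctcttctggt
Eif2ak2, chr17:78882535-78882564, minus strand: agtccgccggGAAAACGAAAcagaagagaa
Oas1a, chr5:120907520-120907549, minus strand: tcgggaaatgGAAACTGAAAatctacttcc
Isg15, chr4:156200871-156200900, minus strand: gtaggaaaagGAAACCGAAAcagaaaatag
The 30 bases at Ifit3 and Ifit3b are identical, and Oas1g holds the site of Oas1a at chr5:120887606-120887635. No match was found in the windows of Oasl2, Oasl1, Ifit2, Irf7, Irf9, Cmpk2, Ifi44 or Ifi44l, which says only that these letters are not in those windows.

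KOKI cultures had lower levels of most members than WT LPS cultures. Of the 38 members tested, 21 fell, 0 rose and 17 did not pass (edgeR, adjusted p under 0.05). Of all 15342 genes tested 4.08% were called, 1.83% lower and 2.25% higher. All 38 log2 fold changes were negative, with a median of −0.94 beside −0.02 over all genes tested. In 32 of the 38 both KOKI libraries lay below both WT LPS libraries and in 0 above, against 24.1% and 23.0% of all genes. Ifitm1 and Ifi44l were too low to be tested. By role, the median log2 fold change was −2.91 for the 2 nucleotide enzymes, −2.41 for the 4 Ifit genes, −1.41 for the 6 oligoadenylate synthetase genes tested, −0.66 for the 4 sensors and −0.39 for the 2 membrane restriction genes tested.

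**Figure D1:**
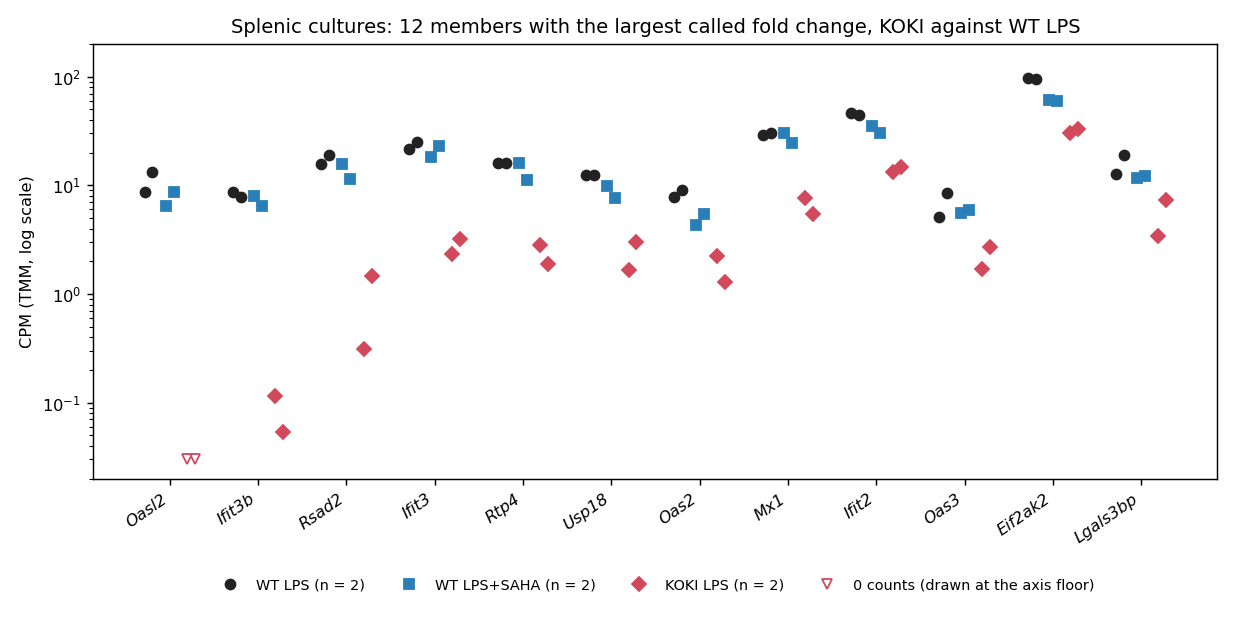
CPM on a log axis in the 6 splenic libraries for the 12 called members with the largest fold change between KOKI and WT LPS; each symbol is 1 library and open triangles mark 0 counts. Both KOKI libraries lie below all 4 WT libraries for each of these 12 genes, and Oasl2 had 0 counts in both.

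The nucleotide enzymes were lower. Rsad2 (chromosome 12, 26442753 to 26456452, in GRCm38 like all positions here) encodes viperin, which makes a chain-terminating nucleotide, and was at 15.8 and 18.9 CPM in WT LPS, at 15.7 and 11.5 CPM with SAHA and at 0.310 and 1.46 CPM in KOKI. Both KOKI values lay below every WT value although they differed widely from each other, and Rsad2 fell by 4.38 on the log2 scale (SE 0.51, adjusted p = 0.00325). Its neighbour Cmpk2 (chromosome 12, 26469204 to 26479835), a mitochondrial nucleotide kinase, went from 15.7 and 15.8 CPM to 5.46 and 6.23 CPM (log2 −1.43, SE 0.20, adjusted p = 0.00773). The replicates of Cmpk2 lay close together in both groups.

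All 4 Ifit genes fell. Of their proteins, Ifit1 binds viral RNA ends that lack the host's cap methylation. The 4 genes lie side by side on chromosome 19 between 34550694 and 34650009. Ifit3b was at 8.62 and 7.87 CPM in WT LPS and at 0.116 and 0.0541 CPM in KOKI (log2 −6.44, SE 0.44, adjusted p = 0.000289). Ifit3 went from 21.8 and 25.3 to 2.33 and 3.19 CPM (log2 −3.11, SE 0.23, adjusted p = 0.000413), Ifit2 from 46.6 and 44.3 to 13.3 and 14.6 CPM (log2 −1.71, SE 0.14, adjusted p = 0.000828), and Ifit1 from 48.8 and 55.1 to 18.4 and 24.3 CPM (log2 −1.29, SE 0.17, adjusted p = 0.00601). No library of either group overlapped the other in any of the 4. Ifit3 and Ifit3b share sequence: 51.2% of the 50-base words in Ifit3 transcripts also occur in Ifit3b, so their separate counts are uncertain.

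Oasl2 (chromosome 5, 114896936 to 114912234) had no count in either KOKI culture. This member of the oligoadenylate synthetase family, whose products activate the nuclease RNase L, was at 8.66 and 13.2 CPM in WT LPS and 6.50 and 8.70 CPM with SAHA. With the floor at 3 counts over the 2 KOKI libraries it was at least 161-fold lower than in WT LPS (adjusted p = 0.000652). Its neighbour Oasl1 (chromosome 5, 114923240 to 114937915), which in mice represses translation of Irf7, was at 86.5 and 108 CPM in WT LPS and at 88.4 and 101 CPM in KOKI, with overlapping groups (log2 −0.04, SE 0.16, adjusted p = 0.936). Of the other synthetases, Oas2 went from 7.77 and 9.13 to 2.25 and 1.30 CPM (log2 −2.23, SE 0.34, adjusted p = 0.0118) and Oas3 from 5.15 and 8.43 to 1.71 and 2.71 CPM (log2 −1.63, SE 0.36, adjusted p = 0.0493). Oas1a also fell (log2 −1.19, SE 0.19, adjusted p = 0.0126), while its copy Oas1g ran from 0.624 to 3.22 CPM within WT LPS and overlapped KOKI. Oas1a shares 57.6% of its 50-base words with Oas1g, so the split of reads between them is uncertain.

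Several further effectors fell. The dynamin-like GTPase Mx1, which traps viral nucleocapsids, went from 29.2 and 30.2 to 7.60 and 5.47 CPM (log2 −2.18, SE 0.20, adjusted p = 0.00115). Its paralog Mx2 was at 11.8 and 12.1 CPM against 9.18 and 6.82 CPM and did not pass (log2 −0.58, adjusted p = 0.350). Rtp4, an interferon-induced chaperone of membrane receptors, went from 16.2 and 16.1 to 2.83 and 1.89 CPM (log2 −2.75, SE 0.27, adjusted p = 0.00158). Eif2ak2, the kinase PKR that stops translation upon binding double-stranded RNA, went from 97.6 and 95.2 to 30.2 and 32.7 CPM (log2 −1.62, SE 0.12, adjusted p = 0.000465). Both KOKI libraries were below both WT LPS libraries for all 4 of these genes. Lgals3bp, a secreted galectin-binding glycoprotein, went from 12.7 and 18.9 to 3.45 and 7.36 CPM (log2 −1.56, SE 0.35, adjusted p = 0.0493), with the replicates of each group well apart. Trim30a (log2 −0.80) and the ADP-ribosyltransferase Parp14 (log2 −0.69) also passed.

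Regulators and sensors fell in part. Usp18, which removes Isg15 from proteins and restrains the interferon receptor, went from 12.5 and 12.4 to 1.67 and 3.03 CPM (log2 −2.42, SE 0.31, adjusted p = 0.00538). Isg15 itself was at 43.1 and 32.5 CPM against 16 and 25.1 CPM, without overlap, and did not pass (log2 −0.88, SE 0.25, adjusted p = 0.105). The transcription factors Irf7, the amplifier of interferon genes (log2 −1.13), and Irf9 (log2 −0.97) fell, and Stat2 overlapped between groups at 30.3 and 34.4 against 25.9 and 31.8 CPM (log2 −0.17). Of the sensors, Ifih1 (MDA5, log2 −0.94) and Dhx58 (LGP2, log2 −0.94) fell, while Ddx58 (RIG-I, log2 −0.39) and Zbp1 (log2 −0.36) did not pass. Bst2 (log2 −0.21), Ifitm3 (log2 −0.57) and the exonuclease Isg20 (log2 −0.12) overlapped between groups. Of the remaining members, which did not pass, Xaf1 had a log2 fold change of −0.76, Samd9l of −0.53, the ubiquitin ligase Dtx3l of −0.47, the Isg15 ligase Herc6 of −0.44, Ifi35 of −0.35 and Parp9, the partner of Dtx3l, of −0.29. Dtx3l and Parp9 overlap on opposite strands, so their reads may not be fully separated.

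Ifi44l, a cytoplasmic protein of unclear function, had higher values in KOKI. It had 0 counts in all 4 WT libraries and 7 and 13 counts in the KOKI cultures, which is 0.271 and 0.704 CPM. Against 3 counts over the 2 WT LPS libraries this was at least 8.81-fold higher, untested since the gene was under the filter. Its neighbour Ifi44 was at 3.47 and 1.82 CPM in WT LPS and 0.930 and 1.25 CPM in KOKI and did not pass (log2 −1.28, adjusted p = 0.275).

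Falls were found among members with and without the GAAA element in their window. Of the 15 with it, 9 fell and the median log2 fold change was −0.94, and of the 14 tested without it, 6 fell and the median was −0.87.

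The plasmablast markers rose where the members fell. In KOKI 8 of them summed to 1816 and 1667 CPM against 823 and 796 CPM in WT LPS. Of 7 tested 6 rose, where 2.25% of all genes were called higher. T cell markers summed to 12.1 and 10.9 CPM against 17.0 and 17.1 CPM, and NK markers to 0.575 and 1.56 CPM against 2.45 and 2.12 CPM, with none of either list at 0 in all splenic libraries. Markers of plasmacytoid dendritic cells, known producers of type I interferon, overlapped at 233 and 196 against 229 and 185 CPM. The part of these cells in the falls was not tested. In bulk RNA fewer cells of a type and less RNA per cell cannot be told apart.

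Leaving out a library changed the count of falls. With KOKI replicate 1 left out it was 14, as it was with WT LPS replicate 2 left out; with KOKI replicate 2 or WT LPS replicate 1 left out it was 15. The 12 members called in all 14 other settings run were Oasl2, the 4 Ifit genes, Rsad2, Cmpk2, Rtp4, Usp18, Mx1, Eif2ak2 and Ifih1. Oas2, Oas3, Oas1a, Lgals3bp, Irf7, Irf9, Dhx58, Trim30a and Parp14 lost their call in at least 1.

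Genes around the members in the pathway moved in part. None of the 20 type I and type III interferon genes was high enough to be tested, and together they had 0 to 35 counts per library, the 35 in WT LPS+SAHA replicate 2 and 0 in both KOKI cultures. The type II interferon Ifng, made mainly by T and NK cells, had 5 and 13 counts in WT LPS, 15 and 7 with SAHA and 0 in both KOKI cultures. None of 6 receptor genes was called between KOKI and WT LPS. Their most abundant member here, the receptor chain Ifnar1, was at 64.5 and 69.6 CPM in WT LPS and 69.3 and 78.1 CPM in KOKI. Of 19 upstream sensors and adaptors, only Tlr7, the endosomal receptor for single-stranded RNA, was called (log2 −1.13, SE 0.16, adjusted p = 0.00735).

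Interferon targets outside the 40 were lower in part. Of all genes tested, 1.83% were called lower and 2.25% higher in this comparison of KOKI with WT LPS. Of 63 other type I targets tested, 15 fell and 1 rose. The falls included the Schlafen genes Slfn5, from 45.3 and 49.0 to 4.03 and 5.47 CPM (log2 −3.32, SE 0.20, adjusted p = 0.000154), Slfn8 (log2 −2.55) and Slfn1 (log2 −4.30, with 0 counts in KOKI replicate 2). Slfn9, of the same family, rose from 9.33 and 11.4 to 24.0 and 27.3 CPM (log2 1.31, SE 0.19, adjusted p = 0.00842). In some targets the KOKI cultures differed widely from each other. Trim12a was at 80.6 and 70.5 CPM in WT LPS and at 24.6 and 0.487 CPM in KOKI. Trim30d was at 68.1 and 64.7 CPM in WT LPS and at 16.1 and 0.650 CPM in KOKI. Of 23 targets that lean to type II interferon, 5 fell, among them the guanylate-binding protein Gbp6 (log2 −2.86) and the chemokine Cxcl10 (log2 −1.95), and 0 rose.

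**Figure D2:**
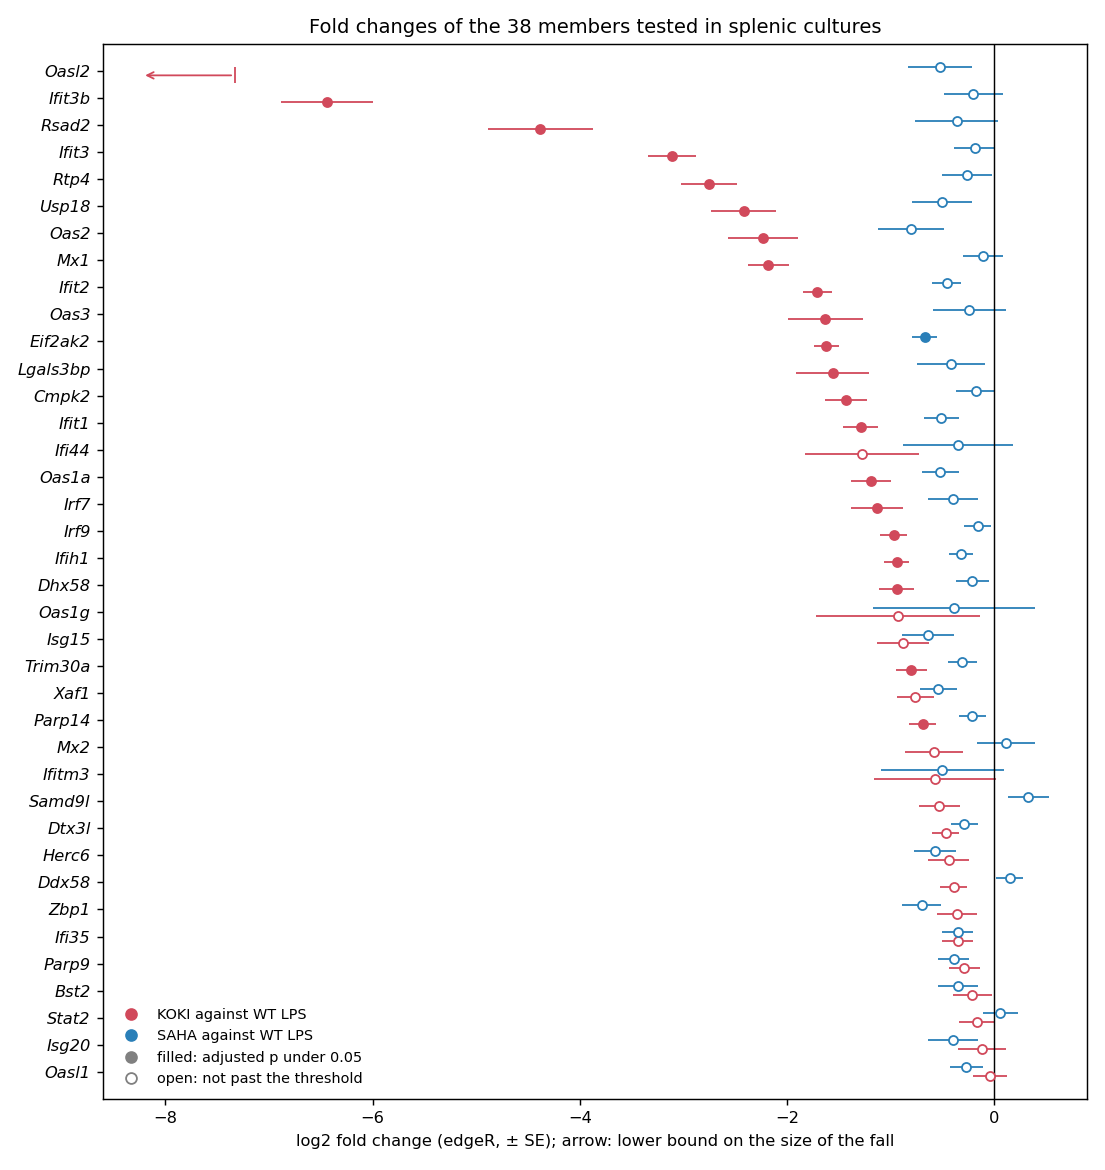
Log2 fold change with its standard error for the 38 members tested in splenic cultures, KOKI against WT LPS (red) and SAHA against WT LPS (blue); filled points passed the threshold and the arrow marks the bound for Oasl2, 0 in both KOKI libraries. All 38 red values lie below 0 and 21 passed, while 34 of 38 blue values lie below 0 and 1 passed; the comparisons share the WT LPS libraries.

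The SAHA comparison asks how the members differ when a histone deacetylase inhibitor is added to WT cultures. Of 38 members tested 1 fell and 0 rose, where 4.64% of all genes were called, 3.69% lower and 0.952% higher. Eif2ak2 went from 97.6 and 95.2 CPM to 61.3 and 60.3 CPM (log2 −0.67, SE 0.12, adjusted p = 0.0303). Its groups did not overlap and its replicates lay close together. The call was lost without each of the 6 splenic libraries in turn, at an adjusted p of 0.0526 to 0.139, and the log2 fold change then stayed between −0.71 and −0.64. The median log2 fold change over the 38 members was −0.35, beside 0.02 over all genes tested. Both SAHA libraries lay below both WT LPS libraries for 24 of 38 members and above for 0, against 28.4% and 27.5% of all genes.

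Plasmablast markers summed to 523 and 602 CPM with SAHA against 823 and 796 CPM without. Of 7 tested 3 fell, where 3.69% of all genes were called lower. The part of these cells was not tested. The 4 members with the next smallest p did not pass, and their groups did not overlap. Zbp1, a sensor of Z-form nucleic acid that can trigger cell death, was at 25.4 and 30.0 CPM without and 14.1 and 20 CPM with SAHA (log2 −0.70, SE 0.19, adjusted p = 0.0763). Ifit2 was at 46.6 and 44.3 against 35.5 and 30.6 CPM (log2 −0.46, adjusted p = 0.0899). Xaf1, a pro-apoptotic partner of XIAP, was at 25.9 and 23.6 against 19.4 and 14.7 CPM (log2 −0.54, adjusted p = 0.110). Ifit1 was at 48.8 and 55.1 against 33.6 and 39.2 CPM (log2 −0.51, adjusted p = 0.109). Samd9l had the highest value of all members with SAHA, 623 and 455 CPM against 472 and 387 CPM, and overlapped (log2 0.33, adjusted p = 0.357).

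Pathway genes called with SAHA were few. The phosphatase Ptpn2, which dephosphorylates Jak1, fell (log2 −0.91, SE 0.16, adjusted p = 0.0303), as did the proteasome subunit Psmb10 (log2 −0.62) and the RNA-degrading enzyme Pnpt1 (log2 −0.60). Gbp8 rose from 1.09 and 1.82 to 8.99 and 5.81 CPM (log2 2.34, SE 0.45, adjusted p = 0.0369) and Ly6a rose (log2 0.69). No receptor or other IRF gene was called.

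Against WT LPS+SAHA, the KOKI cultures were also lower in most members. Of 38 tested, 22 fell and 0 rose, where 23.7% of all genes were called, 9.64% lower and 14.1% higher. Both KOKI libraries lay below both SAHA libraries for 26 members and above for 2, against 33.1% and 32.7% of all genes. The median log2 fold change was −0.70, beside −0.03 over all genes. With SAHA, Ifit3b was at 8.01 and 6.39 CPM, Ifit3 at 18.2 and 23.0 CPM, Rtp4 at 15.9 and 11.1 CPM and Mx1 at 30.6 and 24.4 CPM, all above the KOKI values given before. Oasl2 was at least 112-fold lower (adjusted p = 0.000485), Ifit3b fell by 6.24 (SE 0.44), Rsad2 by 4.03 (SE 0.51), Ifit3 by 2.91 (SE 0.23), Rtp4 by 2.49 (SE 0.27) and Mx1 by 2.07 (SE 0.20) on the log2 scale, each at an adjusted p of at most 0.00189. With SAHA, Usp18 was at 9.91 and 7.72 CPM, Oas2 at 4.28 and 5.41 CPM, Oas3 at 5.58 and 5.90 CPM, Ifit2 at 35.5 and 30.6 CPM, Cmpk2 at 12 and 15.6 CPM and Lgals3bp at 11.6 and 12.1 CPM, again all above both KOKI values. Usp18 fell by 1.92 (SE 0.31), Oas2 by 1.43 (SE 0.35), Oas3 by 1.39 (SE 0.37), Ifit2 by 1.25 (SE 0.14), Cmpk2 by 1.25 (SE 0.20) and Lgals3bp by 1.15 (SE 0.35) on the log2 scale, at adjusted p-values of 0.00127 to 0.0476. Samd9l (log2 −0.86, SE 0.21, adjusted p = 0.0211) and Ddx58 (log2 −0.54, SE 0.13, adjusted p = 0.0246) passed here and not against WT LPS. Irf7 did not pass (log2 −0.73, adjusted p = 0.0689). Oasl1 was at 87.1 and 73.6 CPM with SAHA, below the KOKI values, and did not pass (log2 0.23, adjusted p = 0.320). The count was 12 and 16 without KOKI replicate 1 and 2, and 14 and 13 without SAHA replicate 1 and 2. The lambda interferon receptor chain Ifnlr1, at 3.41 and 4.17 CPM with SAHA and 0.155 and 0.379 CPM in KOKI, fell (log2 −3.86, SE 0.62, adjusted p = 0.00491). This comparison shares the KOKI libraries with the comparison against WT LPS, so the values are not a second measurement of KOKI.

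In the femoral pools the members split. Of 40 tested, 1 rose and 0 fell, against 0.0301% of all 16624 genes called higher and 0.00% called lower (edgeR). An unadjusted p under 0.05 was found for 19 members and for 2687 of all 16624 genes. Both KOKI pools lay below both control pools for 21 members and above for 8, against 24.2% and 25.3% of all genes. The median log2 fold change was −0.41 beside −0.02 over all genes. Of the 8 members above in CPM, Oas1g, Xaf1, Ifi35 and Ifitm3 had a lower mean in KOKI in TPM.

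**Figure D3:**
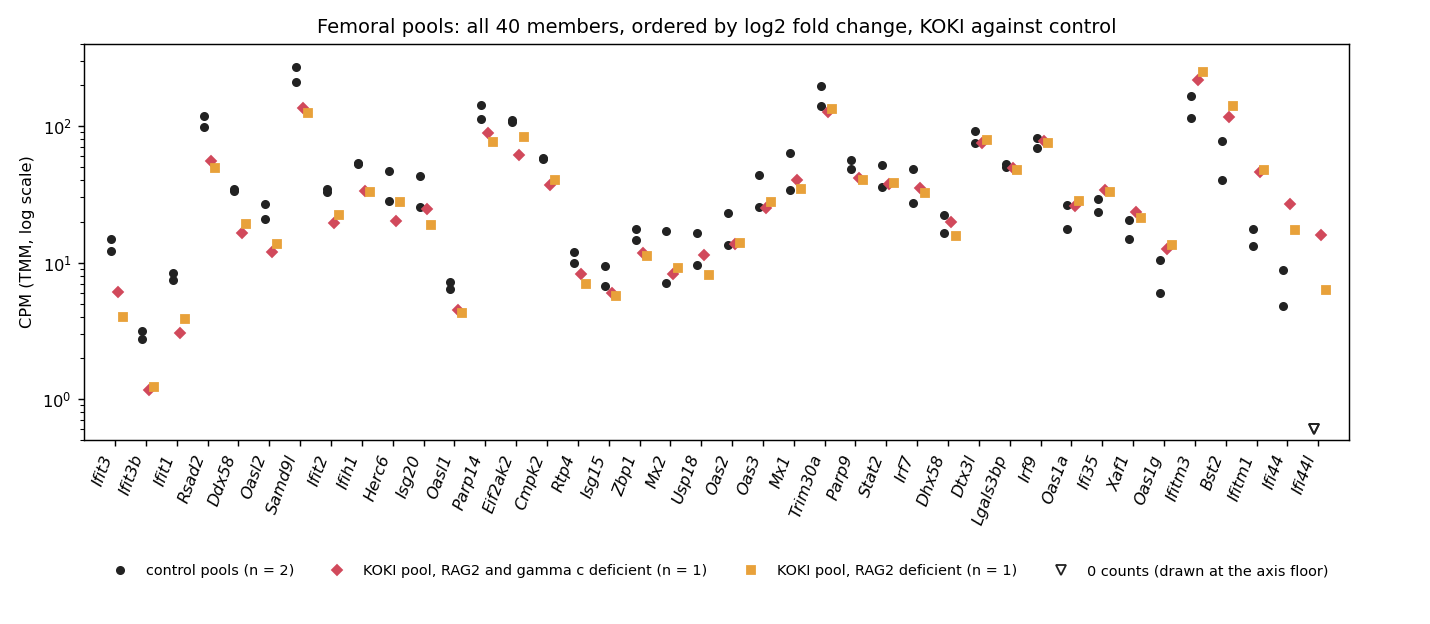
CPM on a log axis in the 4 femoral libraries for all 40 members, ordered from the lowest to the highest log2 fold change of KOKI against control; each symbol is 1 pool of 3 mice. Ifi44l, at the right, had 0 counts in both control pools (open triangle) and 15.8 and 6.33 CPM in the KOKI pools.

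Ifi44l (chromosome 3, 151758737 to 151762892) was the member called. It had 0 counts in both control pools and 323 and 134 counts in the KOKI pools, 15.8 CPM with gamma c deficiency and 6.33 CPM without. It was at least 228-fold higher, against 3 counts over the control pools (adjusted p = 0.0437). Over 10 other settings the adjusted p ran from 2.64e-23 to 0.0698, and the call was lost with other size factors, with a filter at 1 CPM and in a fit of all 10 libraries. Ifi44 (chromosome 3, 151730922 to 151749960), the next gene, was at 4.78 and 8.81 CPM in controls and at 27.0 and 17.2 CPM in KOKI, without overlap (log2 1.70, SE 0.35, adjusted p = 0.115).

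The 3 membrane restriction genes had higher CPM in KOKI pools without passing. Ifitm1, which hinders virus entry at membranes, was at 13.2 and 17.7 against 46.5 and 47.6 CPM (log2 1.61, SE 0.21, adjusted p = 0.0917). Ifitm3 was at 114 and 165 against 217 and 248 CPM (log2 0.73, adjusted p = 0.208), and Bst2 at 40.3 and 77.9 against 116 and 141 CPM (log2 1.12, adjusted p = 0.163). In this scaling the groups did not overlap in any of the 3. In TPM, which is scaled by a length-weighted total, Ifitm1 was at 19.2 and 21.5 against 36.6 and 35, but Ifitm3 at 269 and 325 against 277 and 294 overlapped with a lower mean in KOKI, and Bst2 at 84.0 and 136 against 131 and 148 overlapped.

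All 4 Ifit genes, both nucleotide enzymes and all 4 sensors had a negative log2 fold change in the femur, with medians of −1.24, −0.82 and −0.59, and none passed. Of the 6 oligoadenylate synthetase genes, Oas1a (log2 0.31) and Oas1g (log2 0.67) had a positive one. In TPM both had a lower mean in KOKI. Rsad2 was at 118 and 98.5 against 55.5 and 49.2 CPM (log2 −1.05, SE 0.19, adjusted p = 0.103). Ifit3 was at 12.1 and 15 against 6.10 and 4.01 CPM (log2 −1.42, SE 0.31, adjusted p = 0.118), and Ddx58 at 33.2 and 34.6 against 16.6 and 19.2 CPM (log2 −0.92, SE 0.19, adjusted p = 0.115). Oasl2, at 0 counts in the KOKI cultures, was at 12 and 13.7 CPM in the KOKI pools and 20.8 and 26.9 CPM in controls (log2 −0.89, SE 0.23, adjusted p = 0.151).

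The femoral values hang on the control pools, whose members differed by a median of 0.37 on the log2 scale against 0.14 between the KOKI pools. Mx2, at 7.12 and 17.0 CPM, differed most. Without control replicate 1 the median log2 fold change was −0.61, and without control replicate 2 it was −0.07. The DESeq2 Wald test called 11 members (4 higher, 7 lower). The share of all genes it called is not given here, so this count cannot be read as a trait of the members. On the matched background, KOKI deficient for RAG2 and gamma c against controls gave 0 calls in edgeR among 40 members and all 20204 genes, with 18 members and 1660 genes at an unadjusted p under 0.05, in a fit where the lone pool was assumed to vary like the others. Ifit3 and Ifit3b, Oas1a and Oas1g are uncertain as copies here too. Neutrophil markers summed to 18133 and 13554 CPM in controls and to 13273 and 20575 CPM in KOKI pools, and macrophage and monocyte markers to 5383 and 6318 against 6788 and 5086 CPM; both overlapped.

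**Figure D4:**
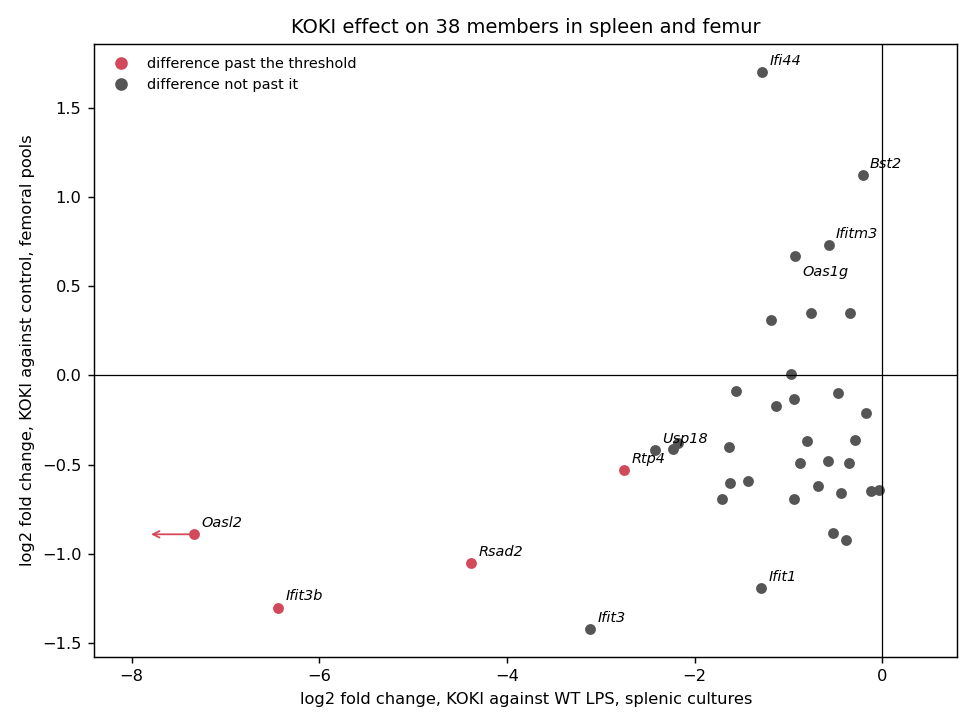
Log2 fold change of KOKI in the splenic cultures (horizontal) against that in the femoral pools (vertical) for the 38 members tested in both; red marks members whose difference passed the threshold and the arrow a bound. Rsad2, Ifit3b, Rtp4 and Oasl2 lie far to the left, and Ifi44 and Bst2 lie above 0 in the femur.

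The KOKI difference was larger in spleen than in femur for a few members. Splenic cultures and femoral pools also differ in culture with LPS, RAG2 deficiency and cell content, and these cannot be told apart from tissue. The KOKI pool deficient for RAG2 alone also lacks the gamma c deficiency of the controls. Of 39 members with a defined difference, 4 passed and had a lower value in spleen, where 0.846% of all 20204 genes were called, 0.431% lower and 0.416% higher. Ifit3b differed by −5.17 (SE 0.70, adjusted p = 0.00656), Rsad2 by −3.36 (SE 0.53, adjusted p = 0.0164) and Rtp4 by −2.24 (SE 0.41, adjusted p = 0.0324) on the log2 scale. Leaving out a library moved the Rsad2 difference between −4.75 and −2.54. The next smallest p was that of Eif2ak2, which did not pass (−1.02, SE 0.22, adjusted p = 0.0587). For Oasl2 the fold is a bound since it was at 0 in KOKI cultures (adjusted p = 0.00107). The calls for Oasl2 and Ifit3b held in all 13 other settings run, that for Rsad2 was lost without WT LPS replicate 2 (adjusted p = 0.0725) and that for Rtp4 in 7 of the 10 fits that left out a library (adjusted p 0.0559 to 0.169). Of the 38 members tested in both, 30 had a negative sign in both, 8 a negative sign in spleen with a positive one in femur, and 21 were called in spleen and not in femur, of which the difference itself passed for the 4 named.

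**Figure D5:**
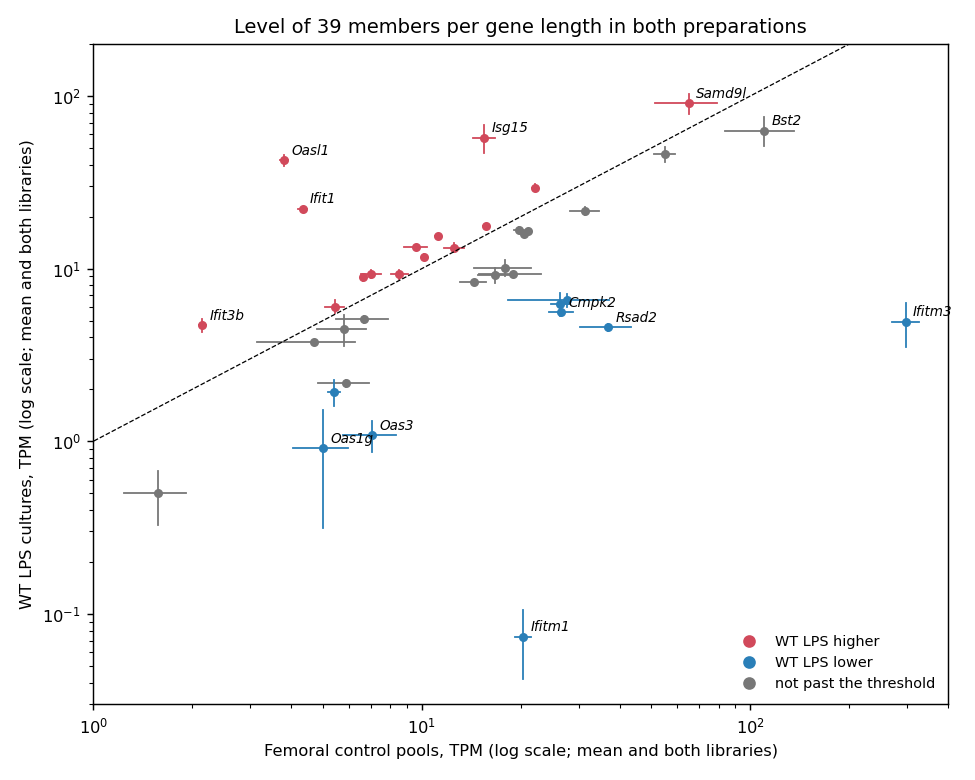
TPM of 39 members in WT LPS cultures (vertical) and femoral control pools (horizontal), both log axes, with points at the mean, lines spanning both libraries and a dashed line at equal TPM; colour shows the edgeR call, which uses TMM scaling and so need not follow the dashed line. Oasl1, Ifit1 and Isg15 lie well above the line and Ifitm3 and Ifitm1 well below.

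Members also differed in level between WT LPS cultures and femoral control pools, which differ in tissue, genotype and culture, so these cannot be told apart. CPM of both come from 1 normalisation of all 10 libraries. Of 40 members, 15 were higher in WT LPS and 9 lower, where 42.4% of all 20204 genes were called, 21.1% higher and 21.3% lower. Groups did not overlap for 19 members higher and 11 lower, against 35.3% and 36.1% of all genes. The median was 0.22 on the log2 scale over 39 members with a defined fold, Ifi44l being at 0 in all 4 libraries. Scaling by DESeq2 size factors moved the median of all genes by −0.16 and the calls to 12 higher and 11 lower.

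The genes higher in WT LPS included all 4 sensors, all 4 Ifit genes and Isg15. Oasl1 was at 94.4 and 115 CPM against 5.73 and 6.70 CPM (log2 4.07, SE 0.20, adjusted p = 3.76e-08), Ifit1 at 53.3 and 58.7 against 6.66 and 7.77 CPM (log2 2.95, SE 0.21, adjusted p = 5.36e-07), and Isg15 at 47.0 and 34.5 against 6.08 and 8.81 CPM (log2 2.45, SE 0.29, adjusted p = 3.50e-05). Ifit3b was at 9.41 and 8.37 against 2.47 and 2.91 CPM (log2 1.72, SE 0.38, adjusted p = 0.00353). No group overlapped another in these 4. The sensors were higher by 0.70 to 1.07 on the log2 scale.

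The genes lower in WT LPS included 2 of 3 membrane restriction genes and both nucleotide enzymes. Ifitm1 was at 0.0426 and 0.112 against 11.8 and 16.4 CPM (log2 −7.38, SE 0.66, adjusted p = 3.48e-06) and Ifitm3 at 3.96 and 2.31 against 102 and 153 CPM (log2 −5.36, SE 0.43, adjusted p = 1.48e-06). Rsad2 was at 17.3 and 20.1 against 105 and 91.1 CPM (log2 −2.39, SE 0.33, adjusted p = 0.000131). Every WT LPS value of these 3 lay below every femoral one. Cmpk2 was at 17.1 and 16.8 against 51.7 and 54.4 CPM (log2 −1.65, SE 0.19), and Lgals3bp at 13.9 and 20.1 against 45.0 and 49.0 CPM (log2 −1.47, SE 0.29). Oas3 was at 5.62 and 8.97 against 22.8 and 40.9 CPM (log2 −2.12, SE 0.33), Oas1g at 0.681 and 3.42 against 5.32 and 9.67 CPM (log2 −1.85, SE 0.63), and Isg20, an RNA exonuclease, at 12.2 and 10.8 against 38.7 and 23.7 CPM (log2 −1.44, SE 0.27). None of the 5 overlapped. The macrophage and neutrophil markers above also moved with this comparison, and the part of these cells was not tested.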

How the data were processed

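The authors deposited 1 table of raw counts per gene. Per the submitters' processing notes, STAR 2.4.0a, featureCounts from Subread 1.4.6-p1 and build mm10 (GRCm38) were used. Whether counting used strand, and what was done with multi-mapping reads, is not stated in these sources. Libraries were made with a stranded total RNA kit, per the labels' protocols. The 100 entries for spike-in and phiX sequences (1 to 17 counts per library) were left out. Tests used edgeR 4.0.16 in R 4.3.3: TMM, filterByExpr (minimum count 10), the quasi-likelihood F test, Benjamini-Hochberg adjustment over all genes. Splenic comparisons came from 6 libraries, the femoral one from 4, others from 10. DESeq2 1.42.0 was an alternative. CPM and log2 fold changes were computed from the deposited counts; TPM used the deposited lengths and plain totals, as did marker sums and members' sums. A group at 0 was set to 3 counts over the group, which covers counting error only. Methods were tested on simulated data. Members and gene lists were chosen with earlier results of these data known. Named members are, per comparison, the 12 called with the largest fold change, or the 5 with the smallest p where fewer than 5 were called; other members are named for contrast, after their values were seen. Replicate pairs differed by more than sampling noise (chi-square per degree of freedom 44.1 to 161).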

Additional observations from a re-analysis of the deposited data

Results flagged for a closer look

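The KOKI effect differed between spleen and femur by a test of the difference itself (edgeR interaction) for 4 members. Tissue, culture with LPS, RAG2 deficiency and cell content differ together here and cannot be told apart. Rsad2 had a difference of −3.36 on the log2 scale (−4.75 to −2.54 leaving out a library), Rtp4 of −2.24 (not past the threshold in 7 of 10 such fits) and Ifit3b of −5.17 (−5.86 to −4.81), and Oasl2, at 0 counts in both KOKI cultures but 12 and 13.7 CPM in the KOKI pools, had an adjusted p of 0.00107.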

How the results depend on the processing

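Among the members called, no log2 fold change changed sign under the settings tried. Which members were called did change in the femoral pools, where the 1 call was higher and most calls by DESeq2 were lower. The femoral means of Ifitm3, Ifi35, Xaf1, Oas1a, Oas1g and Irf9 were higher in KOKI in CPM and lower in TPM. In TPM, Ifi35 was at 21.7 and 22.5 in controls against 17.0 and 15.4 in KOKI. Xaf1 was at 5.06 and 5.78 against 4.34 and 3.67 TPM. Those of Ifi44l, Ifi44, Ifitm1 and Bst2 were higher in KOKI in both scalings. The count of members falling with SAHA was 1, and 5 without a low-count filter, 2 by DESeq2, 0 with all 10 libraries or only the 4 compared, 5 (6 libraries; 2013 genes in all) and 9 (4 libraries; 3413 genes) with the WT number of the titles as a replicate block, and 0 to 0 leaving out a library. No label says what the numbers stand for. WT libraries with the same number deviated together (r = 0.50 over 12592 genes), a hint from 1 pair of groups of 2. KOKI did so less (r = 0.15). With the number as a replicate block the KOKI counts were 24 against WT LPS (1313 genes in all) and 24 against WT LPS+SAHA (4269 genes in all). Leaving out a library, counts were 14 to 22 against WT LPS and 12 to 21 against WT LPS+SAHA. In the femoral pools the 1 call became 0 with DESeq2 size factors, 0 at 1 CPM, 0 with all 10 libraries, 9 without a filter, 11 by DESeq2, 6 in protein-coding genes and 1 to 23 leaving out a library, with medians of −0.61 to −0.07; no paired analysis was possible because the KOKI pools are single libraries of separate genotypes. The difference between spleen and femur called 4, 16 without a filter, 11 by DESeq2 and 2 to 14 leaving out a library. The cause of these differences was not tested. Counts of calls in other settings that are given without a total over all genes cannot be read as a trait of the members. Ifitm1 and Ifi44l were too low in spleen to be tested at this depth.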
